A study of Homo sapiens with 12 samples.

Results

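The 40 genes described here encode the folding machinery of the endoplasmic reticulum (ER), the machinery that removes misfolded proteins from it (ER-associated degradation, ERAD), the SEC61 channel through which proteins enter it, and parts of the unfolded protein response (UPR). They were taken as the rows of the deposited tables that carry 41 listed symbols. VIMP is the older symbol of SELENOS and has no row of its own, so the list comes to 40 genes of the 61510 in the table. Of these, 39 passed the filter on low counts, among 15653 genes in all that passed. The remaining one, DERL3, had 16 counts summed over the 12 libraries and at most 4 in any of them, and was not tested.

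The libraries were bulk RNA sequencing of A549/DDP, which was derived from A549 (human lung adenocarcinoma) and resists cisplatin. Cisplatin at 1 µg/ml was in the culture medium of all 4 groups. One line, shNC, carried a control short hairpin RNA and the other, shNRF2, a hairpin against the transcription factor NRF2, and each received DMSO or gambogenic acid (GNA, a xanthone of gamboge) at 4 µM for 24 h, with 3 libraries in each group. The labels name 1 cell line per hairpin, and they do not say whether clones or pools were used or whether the 3 libraries of a group grew as separate cultures. The p-values therefore rest on library-to-library spread alone, and this may be technical. In such bulk RNA, fewer cells of a type and less RNA per cell cannot be told apart.

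Proteins that enter the ER fold there with the help of HSP70 and HSP90 class chaperones, lectin chaperones that hold glycoproteins, and enzymes that form and rearrange disulfide bonds. Proteins that fail are handed to ERAD, pulled back into the cytosol and degraded. When unfolded protein builds up, the sensors IRE1 (encoded by ERN1), ATF6 and PERK signal to the nucleus: IRE1 splices the XBP1 messenger RNA, ATF6 is cut to release a transcription factor, and PERK slows translation and favours the factor ATF4. Gene counts do not show XBP1 splicing, ATF6 cleavage or protein levels.

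A minority of the genes share a short sequence in their promoters. The symbols were not chosen by this sequence, but many were listed as genes of the UPR, in which it is known to act. Its share among them is therefore not independent of the choice. ATF6 and XBP1 are known to act through the ER stress response element (ERSE), which reads CCAAT, then any 9 bases, then CCACG, and a shorter form, ERSE-II, reads ATTGG, then any base, then CCACG. Promoter windows from 250 bases before to 50 bases after the start (RefSeq, GRCh38.p14) were on hand for 37 of the 40 genes, some with several starts, and were searched on both strands. An exact ERSE stood in 8 of the 37 genes (21.6%), in 10 of their 48 windows (20.8%), and in 27 of the 35116 windows of all genes (0.0769%). ERSE-II stood in 3 further genes (8.11%), in 6.25% of the 48 windows and in 0.0541% of all windows. The 9 distinct ERSE sites are shown because the genes that carry them did not all move the same way, each 5′ to 3′ in the direction of the motif with its fixed bases in capitals.
HSPA5, chr9:125241391-125241409, minus strand: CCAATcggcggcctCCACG
HSP90B1, chr12:103930216-103930234, plus strand: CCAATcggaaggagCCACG
HSP90B1, chr12:103930321-103930339, minus strand: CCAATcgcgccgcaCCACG
CALR, chr19:12938384-12938402, minus strand: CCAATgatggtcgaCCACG
CANX, chr5:179698778-179698796, plus strand: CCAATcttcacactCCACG
PDIA6, chr2:10812853-10812871, minus strand: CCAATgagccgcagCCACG
ERO1B, chr1:236282183-236282201, plus strand: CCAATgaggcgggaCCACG
CRELD2, chr22:49918554-49918572, minus strand: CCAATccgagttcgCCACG
XBP1, chr22:28800603-28800621, minus strand: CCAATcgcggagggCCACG

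ERSE-II was found in HERPUD1, HYOU1 and SDF2L1. The site of HERPUD1 (chr16:56932025-56932035, plus strand) begins 117 bases before the start. Of the other motifs searched, the antioxidant response element TGACNNNGC, the form bound by NRF2, was in 8 of the 37 genes, in 18.8% of their windows and in 13.3% of all windows. The UPR element core TGACGTGG was in HYOU1 alone of the 37 and in 0.729% of all windows, and there it overlaps one of the ERSE-II sites. The C/EBP-ATF element TGATGNAA was in 1 of the 37 and in 3.62% of all windows. The heat shock element (GAA, any 2 bases, TTC, any 2 bases, GAA) was in 0 of the 37 and 0.49% of all windows. A match describes letters and does not show that a factor binds there.

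Longer stretches before the start are given for HSPA5, which rose with GNA, for CALR, which fell, and for XBP1, whose product is one of the factors, each 5′ to 3′ on the strand of the gene with the ERSE in capitals.
HSPA5, chr9:125241344-125241593, minus strand: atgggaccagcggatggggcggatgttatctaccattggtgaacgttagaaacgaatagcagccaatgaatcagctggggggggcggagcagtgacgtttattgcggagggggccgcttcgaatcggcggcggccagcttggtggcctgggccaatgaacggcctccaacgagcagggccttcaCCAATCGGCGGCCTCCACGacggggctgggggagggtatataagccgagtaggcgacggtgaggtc
CALR, chr19:12938359-12938577, plus strand: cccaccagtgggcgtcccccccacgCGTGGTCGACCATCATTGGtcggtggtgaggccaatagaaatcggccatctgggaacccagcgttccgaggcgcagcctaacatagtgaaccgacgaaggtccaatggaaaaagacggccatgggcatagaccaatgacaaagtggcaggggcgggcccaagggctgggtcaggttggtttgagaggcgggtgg
XBP1, chr22:28800598-28800819, minus strand: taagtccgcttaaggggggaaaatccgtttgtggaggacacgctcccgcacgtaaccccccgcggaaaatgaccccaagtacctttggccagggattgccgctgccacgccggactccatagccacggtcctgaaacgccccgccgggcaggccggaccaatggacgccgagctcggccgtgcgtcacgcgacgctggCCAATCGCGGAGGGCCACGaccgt

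Library totals ran from 12848607 to 17192671 counts. NFE2L2, which encodes NRF2, was lower in shNRF2 than in shNC by 0.64 ± 0.064 (SE) on the log2 scale in DMSO and by 0.93 ± 0.064 in GNA (edgeR adjusted p = 1.21e-08 and 9.02e-12). The epithelial keratin genes KRT8 and KRT18 were abundant in every library, with at least 7430 and 1910 CPM (counts scaled to a common library size), and the epithelial adhesion gene CDH1 had at least 31.1. KRT19 had at most 2 counts and EPCAM at most 3.60 CPM. The 10 markers of fibroblasts, endothelium and leukocytes summed to between 5.75 and 9.31 CPM, most of it COL1A1. In shNC DMSO, replicate 1 was unlike replicates 2 and 3 (chi-square per degree of freedom 8.02 and 6.30, against 3.73 between the latter). To a lesser degree shNC GNA 1 (4.13 and 5.29, against 2.81) and shNRF2 DMSO 3 (5.30 and 3.58, against 2.84) also stood apart. The counts of ER genes called without shNC DMSO 1, the farthest apart, are therefore given beside those with it. Ranges over every library left out in turn are given at the end.

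Levels between genes are compared in the deposited FPKM values, which divide by a length per gene. How that length was set is not stated, and the order of the genes depends on it. By CPM, which divides by no length, HSP90B1 (3190 ± 125) and CANX (1951 ± 59.3) stood above CALR (1496 ± 59.0) in shNC DMSO. In shNC DMSO the highest FPKM value was that of CALR, at 509 ± 23.7 FPKM (SD, n = 3), followed by HSP90B1 at 232 ± 10.8, PDIA4 at 206 ± 7.21, HSPA5 at 179 ± 15.02, CANX at 135 ± 4.90 and PDIA6 at 102 ± 4.43. XBP1, at 98.0 ± 2.83, was within the spread of PDIA6. The sensors were far lower, with ATF6 at 2.06 ± 0.140 FPKM and ERN1 at 0.728 ± 0.109. The order was led by lumenal chaperones and isomerases, whereas ERAD genes ranged from OS9 at 67.5 ± 2.49 to DERL2 at 1.26 ± 0.126 FPKM, leaving out DERL3. Summed over its genes, the HSP70 and HSP90 group stood at 632.5 ± 24.6 FPKM, the 3 lectin genes at 654 ± 28.4, the isomerases and oxidases at 404 ± 14.2, ERAD at 166.5 ± 3.15 and the translocon at 91.1 ± 4.48. In CPM the HSP70 and HSP90 group was well above the lectin genes, at 5444 ± 216 against 3574 ± 115.

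In shNC cells GNA divided this machinery instead of moving it as a whole. The HSP70 genes HSPA5 and HSPA13, the membrane lectin CANX, the co-chaperone DNAJB9, 5 of 11 tested ERAD genes and sensors ERN1 and ATF6 rose. HSP90B1, the lumenal lectin CALR, the isomerases PDIA4 and PDIA6, MANF, SDF2L1 and DNAJB11 fell. Of the 39 tested genes 12 rose and 12 fell (edgeR quasi-likelihood test, Benjamini-Hochberg adjusted p under 0.05), a called share of 61.5% against 30.7% of all genes tested, with 14.6% of all genes higher and 16.1% lower. Without shNC DMSO 1 the counts were again 12 and 12, and with scaling by library totals they were 17 and 7, where all genes gave 3543 and 1542. For 14 of the 39 genes every GNA library lay above every DMSO library and for 11 below, against 20.5% and 20.2% of all genes. The median log2 change of the 39 genes was 0.062, against 0.017 over all genes. Genes, roles and lists were chosen with earlier results of these data known. Here and below, their called shares are therefore descriptions that are not independent of the data.

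Levels in single libraries are CPM on totals scaled by the TMM method, in the order of replicates 1, 2 and 3, and changes are log2 fold changes ± SE. HSPA5 encodes BiP, the ER HSP70 that binds nascent chains and holds the sensors inactive; its gene lies on chromosome 9 at 125234853 to 125241330 (GRCh38, GENCODE 29). It stood at 1310, 1121 and 1245 CPM in shNC DMSO and at 1364, 1452 and 1479 in shNC GNA. All GNA libraries lay above the DMSO libraries, by a small margin, and the change was 0.22 ± 0.050 (edgeR adjusted p = 0.00111).

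HSP90B1, the ER member of the HSP90 family (GRP94), stood at 3335, 3128 and 3109 CPM in shNC DMSO and at 2617, 2639 and 2631 in shNC GNA. The libraries did not overlap and the change was -0.28 ± 0.040 (edgeR adjusted p = 4.37e-06). Thus the main ER chaperones of the HSP70 and HSP90 classes went in opposite directions. The ratio of HSPA5 to HSP90B1 counts within a library, which no scaling of libraries can alter, was 0.384 ± 0.0224 (SD, n = 3) in shNC DMSO and 0.544 ± 0.0211 in shNC GNA.

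Calnexin (CANX) and calreticulin (CALR) are the membrane-bound and the soluble form of one lectin chaperone system. CANX stood at 2006, 1888 and 1960 CPM in shNC DMSO and at 2434, 2453 and 2378 in shNC GNA, a rise of 0.31 ± 0.041. CALR stood at 1564, 1461 and 1464 CPM in shNC DMSO and at 967, 997 and 1046 in shNC GNA, a fall of 0.58 ± 0.045 on the log2 scale (-0.58). The 2 lectin genes parted, with no overlap of libraries for either. The ratio of CANX to CALR counts was 1.28, 1.29 and 1.34 in shNC DMSO and 2.52, 2.46 and 2.27 in shNC GNA. UGGT1, the glucosyltransferase that returns unfolded glycoproteins to these lectins, was at 0.062 ± 0.058 (edgeR adjusted p = 0.46).

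**Figure D1:**
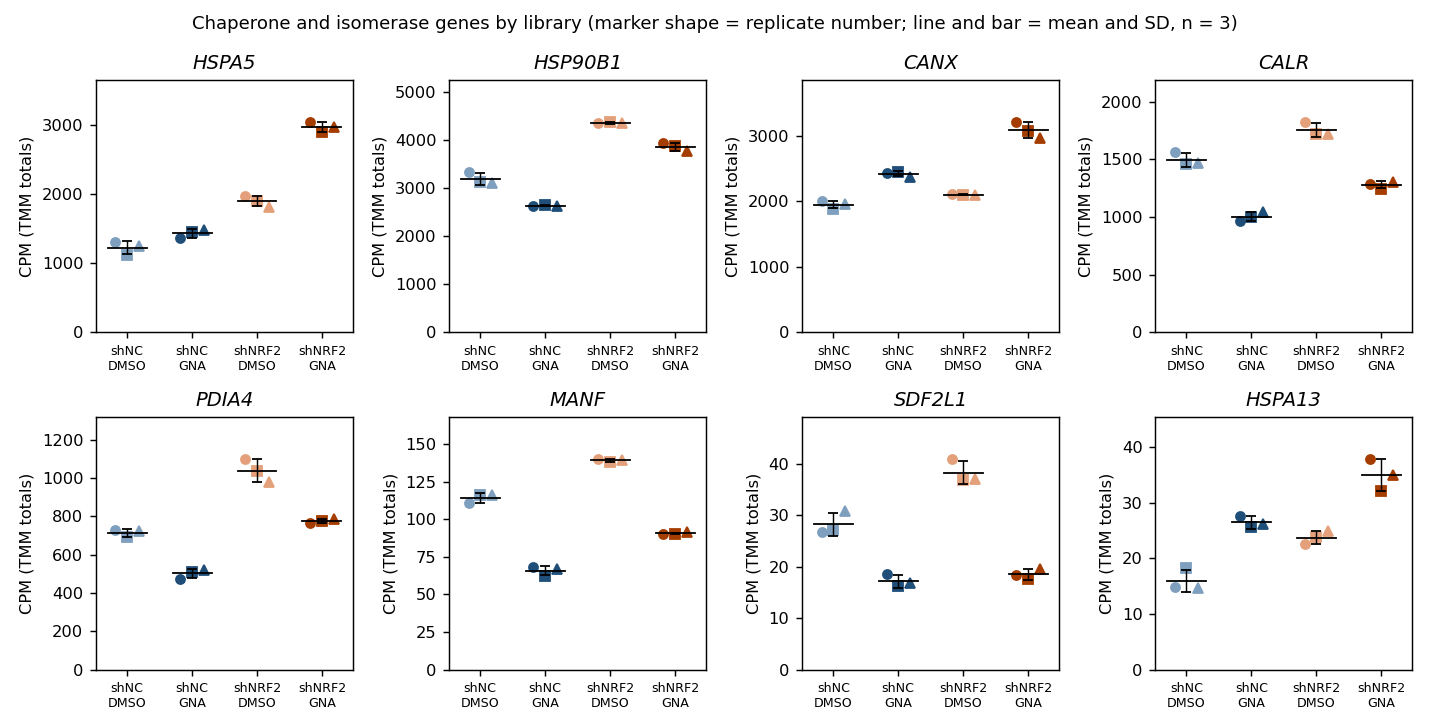
Level of 8 chaperone and isomerase genes in each of the 12 libraries, in CPM on TMM-scaled totals (vertical axis from 0), by hairpin line and treatment; points are libraries, horizontal lines means and bars SD of 3. HSPA5, CANX and HSPA13 are higher with GNA in both lines, and HSP90B1, CALR, PDIA4, MANF and SDF2L1 lower.

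Among the other genes of the HSP70 and HSP90 group, HSPA13, a microsomal HSP70 family member, rose from 14.9, 18.3 and 14.7 CPM in shNC DMSO to 27.6, 25.5 and 26.1 in shNC GNA (0.72 ± 0.094). DNAJB9, a J-domain protein that assists BiP in ERAD and represses IRE1, rose by 0.47 ± 0.073. MANF, a secreted ER stress factor, fell from 110.5, 116.2 and 116.2 CPM to 68.6, 62.4 and 66.7 (-0.80 ± 0.054, edgeR adjusted p = 7.00e-12), the largest fall in this set of genes in shNC. SDF2L1, which with the J-domain protein DNAJB11 forms a complex that keeps BiP clients soluble, went from 26.7, 27.1 and 30.8 CPM to 18.6, 16.2 and 16.8 (-0.72 ± 0.089). DNAJB11 itself fell by 0.33 ± 0.049 on the log2 scale (-0.33). So both members of that complex fell while BiP rose. HYOU1 (0.12 ± 0.068) and SIL1 (0.12 ± 0.055), the exchange factors that reset BiP, and DNAJC3 (-0.13 ± 0.057), CRELD2 (-0.062 ± 0.11) and FKBP2 (0.11 ± 0.31) were not called. The calls for HYOU1 and DNAJC3 turned on 1 library: without shNC GNA 1 HYOU1 was called (0.19, edgeR adjusted p = 0.029) and without shNC DMSO 1 DNAJC3 was (-0.17, edgeR adjusted p = 0.034). Scaling by library totals called HYOU1, SIL1, UGGT1, EDEM3 and DERL1 higher in shNC (adjusted p = 0.0143, 0.00184, 0.0323, 0.0361 and 0.0152).

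No disulfide isomerase or oxidase gene rose in shNC, and 4 of 7 fell. PDIA4, a lumenal isomerase with several thioredoxin domains, fell from 731, 691 and 722 CPM to 475.5, 511 and 521.5 (-0.51 ± 0.048, edgeR adjusted p = 4.43e-09). PDIA6 fell by 0.36 ± 0.045 and PDIA3, the isomerase that works with the lectins, by 0.18 ± 0.052 (-0.18) on the same scale. ERO1A, an oxidase that recharges the isomerases, was at -0.25 ± 0.061, and its relative ERO1B at 0.099 ± 0.13, PDIA5 at -0.016 ± 0.092 and P4HB at -0.020 ± 0.045. The calls of PDIA3 and ERO1A were lost when libraries were scaled by their totals and with limma on FPKM (adjusted p = 0.252 to 0.507 and 0.0712 to 0.156).

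ERAD leaned the other way, with 5 of 11 tested genes higher and 1 lower. HERPUD1, which organises the ERAD complex around the ubiquitin ligase HRD1 (encoded by SYVN1) and its partner SEL1L, stood at 26.8, 27.2 and 30.8 CPM in shNC DMSO and at 37.1, 36.6 and 35.4 in shNC GNA (0.36 ± 0.072). SEL1L rose by 0.24 ± 0.046, the lectin OS9 by 0.19 ± 0.045 and the membrane selenoprotein SELENOS, which recruits the ATPase p97, by 0.28 ± 0.054. SYVN1 went from 11.5, 8.47 and 7.33 CPM to 13.8, 11.7 and 12.5 (0.48 ± 0.13, edgeR adjusted p = 0.0066), a call lost without shNC DMSO 3 (adjusted p = 0.066). The lectin-like mannosidase genes EDEM1, EDEM2 and EDEM3 (-0.13 ± 0.082, -0.056 ± 0.087 and 0.086 ± 0.068) and the derlin genes DERL1 and DERL2 (0.17 ± 0.084 and -0.012 ± 0.13) were not called. SELENOK was at -0.24 ± 0.087 (edgeR adjusted p = 0.041), a call lost without shNC DMSO 2 or 3, shNC GNA 2 or 3 or shNRF2 GNA 3 (adjusted p = 0.051 to 0.30), and with a replicate block (0.0519). Library totals, limma and the compared groups alone ended it as well (adjusted p up to 0.591), and its GNA and DMSO libraries overlapped.

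In the translocon SEC61A1, the pore subunit, rose by 0.25 ± 0.062, and the 2 small subunits were lower, SEC61B at -0.28 ± 0.10 and SEC61G at -0.19 ± 0.073 (edgeR adjusted p = 0.033 and 0.047). Both of these calls were marginal. SEC61B lost its call without shNC DMSO 1 or 2 or shNC GNA 2 or 3 (adjusted p = 0.081 to 0.16), and SEC61G without any of 6 libraries, namely shNC DMSO 2 and 3, shNC GNA 2 and 3, shNRF2 DMSO 2 and shNRF2 GNA 1 (adjusted p = 0.053 to 0.21) or with a replicate block (0.0577). Library totals and limma ended both calls (0.159 to 0.363 and 0.358 to 0.667).

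Of the sensors, ERN1 had the largest rise of the 39 genes in shNC. It went from 14.9, 12.3 and 16.7 CPM in shNC DMSO to 21.2, 28.3 and 32.3 in shNC GNA (0.91 ± 0.12, edgeR adjusted p = 1.05e-06), and replicate 1 of the GNA group was the lowest of its 3. ATF6 went from 30.6, 33.1 and 28.9 CPM to 37.1, 37.3 and 38.1 (0.28 ± 0.075, edgeR adjusted p = 0.00571). XBP1 moved from 314, 302.5 and 318 CPM to 335, 348 and 349 (0.14 ± 0.16, edgeR adjusted p = 0.54). The 3 GNA libraries lay above the 3 DMSO libraries, and XBP1 was called in shNC when those 2 groups were fitted alone (adjusted p = 0.032) and without the filter on low counts (adjusted p = 0.024).

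In shNRF2 cells GNA also moved these genes both ways, with 14 of 39 genes higher and 11 lower. That is a called share of 64.1% against 33.7% of all genes tested (16.7% higher and 17% lower), and the counts without shNC DMSO 1 were again 14 and 11. With no overlap of libraries, 14 genes lay above and 11 below, against 22.8% and 22.1% of all genes. The median over the 39 genes was 0.033, against 0.0098 over all genes. The lines have separate control libraries, and 9 genes rose in both: HSPA5, HSPA13, DNAJB9, CANX, OS9, SELENOS, SEC61A1, ATF6 and ERN1. Another 8 fell in both: HSP90B1, DNAJB11, SDF2L1, MANF, CALR, PDIA4, PDIA6 and ERO1A. The share of all genes called alike in both lines was not counted.

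HSPA5 stood at 1968, 1904 and 1816 CPM in shNRF2 DMSO and at 3042, 2891 and 2967 in shNRF2 GNA, a rise of 0.65 ± 0.050 (edgeR adjusted p = 6.74e-11). HSP90B1 went from 4340, 4374 and 4341 CPM to 3928, 3879 and 3759 (-0.17 ± 0.040, edgeR adjusted p = 0.00105, a call lost with limma on unfiltered FPKM at 0.0724). The ratio of HSPA5 to HSP90B1 counts went from 0.436 ± 0.0176 to 0.770 ± 0.0224 (SD, n = 3), with no overlap. CANX rose from 2105, 2098 and 2093 CPM to 3213, 3079 and 2968 (0.56 ± 0.041), and CALR fell from 1825, 1716 and 1719 to 1290, 1244 and 1302 (-0.46 ± 0.045). The lectins thus parted in this line as well, the CANX to CALR ratio going from 1.15, 1.22 and 1.22 to 2.49, 2.47 and 2.28.

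In the rest of the HSP70 and HSP90 group, SDF2L1 had the deepest fall of the set in shNRF2, from 40.9, 36.8 and 37.0 CPM to 18.3, 17.6 and 19.6 (-1.05 ± 0.087, edgeR adjusted p = 2.22e-10). CRELD2, a secreted ER stress protein with isomerase activity, fell nearly as far, from 46.5, 41.3 and 37.4 CPM to 22.1, 19.5 and 20.8 (-1.01 ± 0.11). MANF fell by 0.62 ± 0.052 (-0.62). HYOU1 (0.28 ± 0.067), SIL1 (0.23 ± 0.055), HSPA13 (0.56 ± 0.090) and DNAJB9 (0.44 ± 0.070) rose, so that 5 of 12 genes of the HSP70 and HSP90 group were higher and 5 lower. DNAJC3 (-0.079 ± 0.056) and FKBP2 (0.0024 ± 0.32) were not called.

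**Figure D2:**
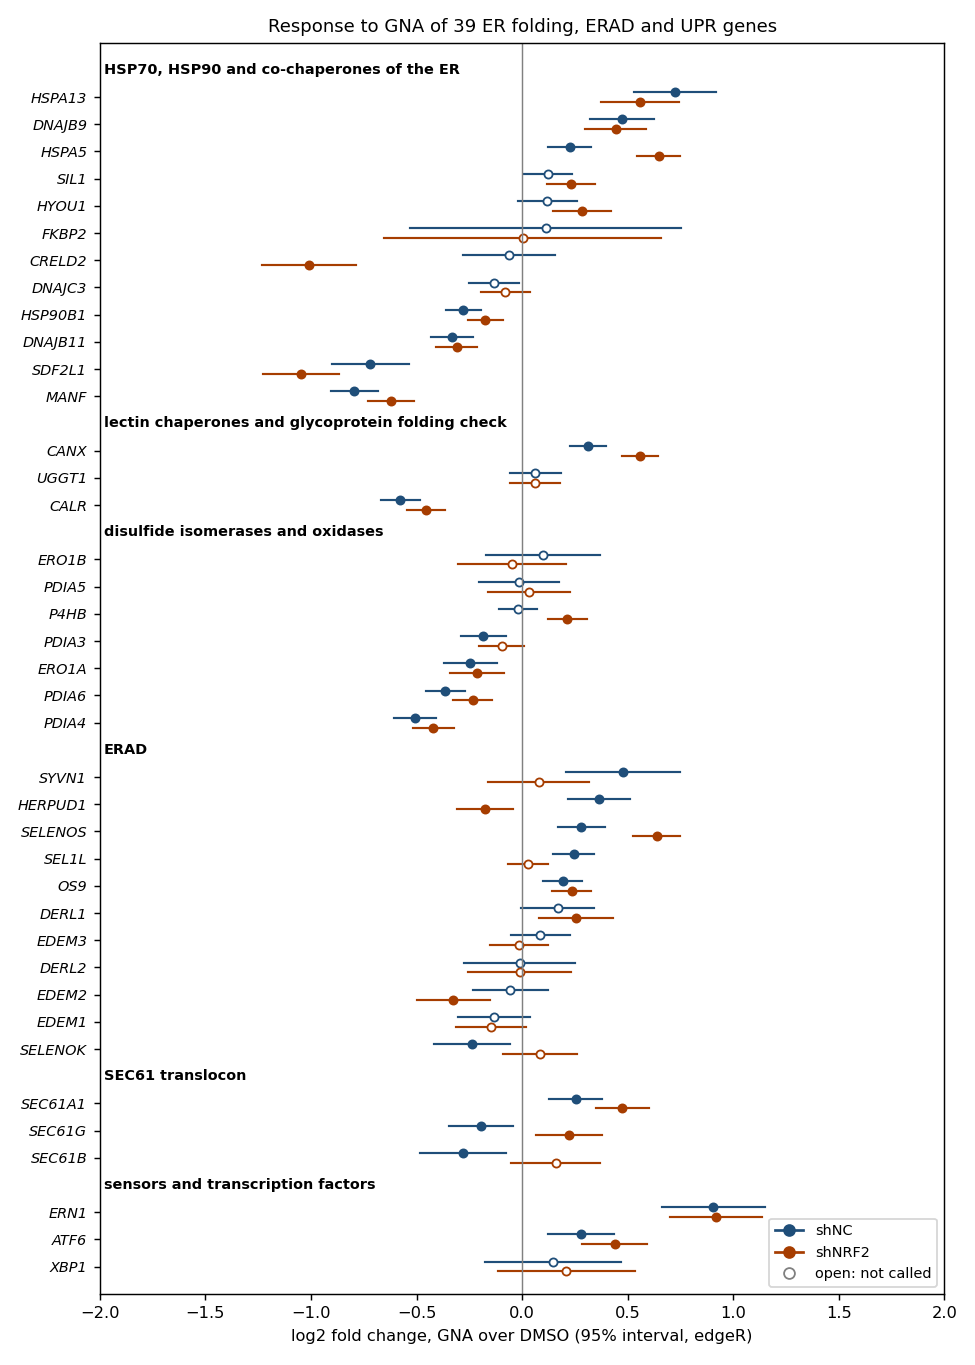
Log2 fold change of GNA over DMSO (horizontal axis) with its 95% interval from edgeR for the 39 tested genes, in shNC (blue) and shNRF2 (orange), ordered within each role by the change in shNC; filled points were called at an adjusted p under 0.05. In both lines HSPA13, DNAJB9, HSPA5, CANX and ERN1 lie to the right of 0 and MANF, SDF2L1, CALR and PDIA4 to the left, while HERPUD1 and CRELD2 differ between the lines.

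PDIA4 (-0.42 ± 0.047), PDIA6 (-0.23 ± 0.045) and ERO1A (-0.21 ± 0.062) fell in shNRF2, and P4HB, the classic protein disulfide isomerase, rose from 760, 722 and 698 CPM to 863, 822 and 843 (0.21 ± 0.045). ERO1A lost its call without shNRF2 DMSO 2 or shNRF2 GNA 3 (adjusted p = 0.062 to 0.071) and with library totals or limma (0.0575 to 0.121). Of 11 ERAD genes 3 were higher and 2 lower. SELENOS rose from 115, 119 and 114 CPM to 181, 184.5 and 175 (0.64 ± 0.053, edgeR adjusted p = 2.83e-10) and OS9 by 0.23 ± 0.045. EDEM2, which starts the trimming of mannose from misfolded glycoproteins, fell by 0.33 ± 0.084 on the log2 scale (-0.33). DERL1 was at 0.25 ± 0.086, a call lost without shNRF2 DMSO 2 or shNRF2 GNA 3 (adjusted p = 0.12 to 0.15). HERPUD1 was at -0.18 ± 0.065 (edgeR adjusted p = 0.038), lost without any 1 of shNRF2 DMSO 1, 2 and 3 and shNRF2 GNA 1 and 2 (adjusted p = 0.056 to 0.20), with library totals, without the filter and with limma (0.117 to 0.297). EDEM2 lost its call with limma on unfiltered FPKM (0.075), and EDEM1 (-0.15 ± 0.081) was called without shNRF2 DMSO 3 (0.032). SEL1L (0.028 ± 0.046) and SYVN1 (0.078 ± 0.12) were not called.

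SEC61A1 rose from 75.2, 72.9 and 66.8 CPM to 100.7, 100.1 and 98.1 (0.47 ± 0.061). SEC61B was at 0.16 ± 0.10 and SEC61G at 0.22 ± 0.076 (edgeR adjusted p = 0.024), the latter lost without shNRF2 DMSO 1 or 2 or shNRF2 GNA 1 or 2 (adjusted p = 0.072 to 0.15). ERN1 rose from 30.7, 29.2 and 26.8 CPM to 53.3, 54.9 and 55.7 (0.92 ± 0.105, edgeR adjusted p = 8.70e-08) and ATF6 from 30.0, 31.9 and 32.0 to 44.0, 38.7 and 44.5 (0.44 ± 0.076).

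XBP1 was the most variable of the 39 genes except FKBP2 in shNRF2 GNA. It stood at 381, 254 and 308.5 CPM in shNRF2 DMSO and at 422, 209 and 462.5 in shNRF2 GNA, and replicate 2 was the lowest library in both groups. Its coefficient of variation was 20.3% and 37.4% there, against 2.59% and 2.25% in the shNC groups and a 95th percentile of 15% and 13.6% over genes with a mean of at least 10 CPM in the same shNRF2 groups. The change with GNA in shNRF2 was 0.21 ± 0.16 (edgeR adjusted p = 0.33). Without the filter on low counts it was called (adjusted p = 0.000551), and without shNRF2 GNA 2 it was 0.49 (adjusted p = 0.00014), so no direction is drawn for XBP1 in this line.

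**Figure D3:**
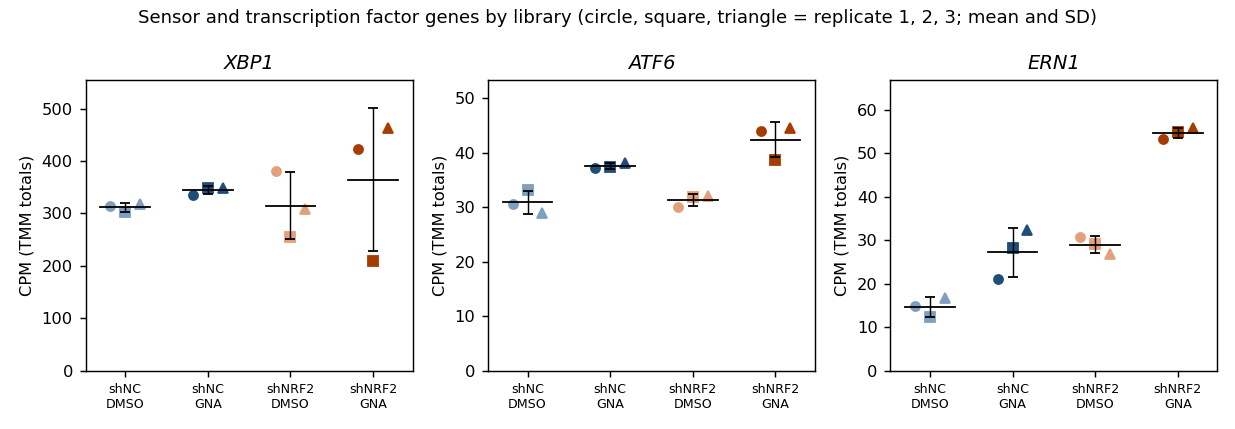
Level of XBP1, ATF6 and ERN1 in each of the 12 libraries, in CPM on TMM-scaled totals (vertical axis from 0), by hairpin line and treatment; circle, square and triangle are replicates 1, 2 and 3, lines and bars mean and SD. ERN1 and ATF6 are higher with GNA in each line, and XBP1 spreads from 209 to 462.5 CPM within shNRF2 GNA.

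The test of the difference of responses asks whether GNA changed a gene more in one line than in the other. It called 8 of the 39 genes, 20.5% against 6.82% of all genes tested, with 5 responses higher in shNRF2 (3.58% of all genes) and 3 lower (3.24%). Without shNC DMSO 1 these were 6 and 4, with SELENOK (0.43, edgeR adjusted p = 0.014) and SYVN1 (-0.60, adjusted p = 0.020) added. HSPA5 rose more in shNRF2, by 0.42 ± 0.071 (95% interval 0.28 to 0.57, edgeR adjusted p = 0.000345), and so did CANX (0.245 ± 0.058, adjusted p = 0.00984) and SELENOS (0.36 ± 0.076, adjusted p = 0.00397). CRELD2 had the largest difference, -0.95 ± 0.15 (95% interval -1.26 to -0.64, edgeR adjusted p = 0.000176). The call of HSPA5 was lost with limma on unfiltered FPKM (0.38, adjusted p = 0.0869), and that of CANX there and with limma on log2(FPKM + 0.1) (0.112 and 0.0534). The DMSO and GNA libraries of CRELD2 in shNC overlapped, at 35.1, 26.0 and 27.7 CPM with DMSO and 24.1, 30.2 and 30.4 with GNA.

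HERPUD1 rose in shNC and was at -0.18 in shNRF2, with a difference of -0.54 ± 0.097 (95% interval -0.74 to -0.34, edgeR adjusted p = 0.000736). Its level in shNRF2 was above that of shNC in either treatment, at 72.0, 68.6 and 69.5 CPM with DMSO and 63.6, 58.2 and 64.2 with GNA. The differences for SEL1L (-0.22 ± 0.065, adjusted p = 0.043), P4HB (0.23 ± 0.063, adjusted p = 0.024) and SEC61G (0.42 ± 0.105, adjusted p = 0.0151) were weaker calls. SEL1L kept its call without shNC DMSO 1 or shNC GNA 1 and lost it without any of the 10 other libraries (adjusted p = 0.058 to 0.12). P4HB lost it without shNC DMSO 3, shNC GNA 2, shNRF2 DMSO 2 or 3 or shNRF2 GNA 1 or 3 (adjusted p = 0.054 to 0.077), and SEC61G without shNC GNA 2 or 3, shNRF2 DMSO 1 or shNRF2 GNA 2 (adjusted p = 0.050 to 0.060). Library totals and limma ended the call of P4HB (adjusted p = 0.059 to 0.194), limma that of SEC61G (0.111 to 0.301), and the unfiltered fit and the replicate block that of SEL1L (0.099 and 0.0647). Without shNC DMSO 3 SEC61B was called too (0.52, adjusted p = 0.035; 0.44 ± 0.14 and adjusted p = 0.064 with all libraries). For ERN1 the difference was 0.011 ± 0.16 (95% interval -0.32 to 0.34), which leaves room for a difference of up to about that size in either direction.

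**Figure D4:**
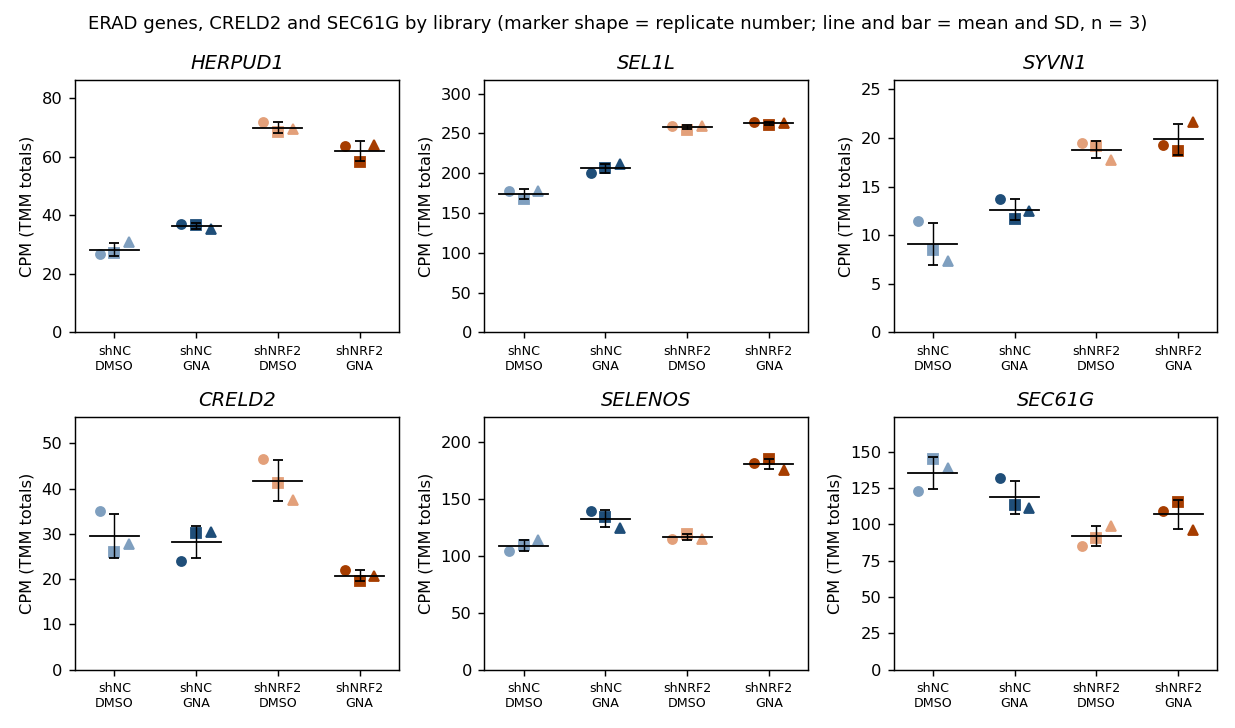
Level of HERPUD1, SEL1L, SYVN1, CRELD2, SELENOS and SEC61G in each of the 12 libraries, in CPM on TMM-scaled totals (vertical axis from 0), by hairpin line and treatment; points are libraries, lines and bars mean and SD of 3. HERPUD1, SEL1L and SYVN1 are higher in every shNRF2 library than in any shNC library, and CRELD2 is lowest in shNRF2 GNA.

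Between the lines, most chaperone, lectin, disulfide and ERAD genes were higher in shNRF2, while the SEC61 translocon gave 1 higher and 2 lower in DMSO and the sensors and factors 1 of 3 higher. In DMSO 28 of the 39 genes were higher in shNRF2 and 2 lower, a called share of 76.9% against 35.2% of all genes tested, of which 16.8% were higher and 18.3% lower. Without shNC DMSO 1 the counts were 27 and 3. All 3 shNRF2 libraries lay above all 3 shNC libraries for 28 genes and below for 3, against 21.3% and 21.9% of all genes. In GNA 26 were higher and 1 lower (69.2%, against 26.1% of all genes, 12.8% higher and 13.3% lower), and again 26 and 1 without that library, with 29 genes above and 2 below with no overlap, against 21.2% and 19.7%. The median was 0.28 in DMSO and 0.36 in GNA, against 0.011 and 0.013 over all genes. The 2 comparisons use different libraries, and 24 genes were higher in both. The share of all genes higher in both was not counted. With a single line per hairpin, the hairpin and other differences between the lines cannot be told apart.

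The steepest differences in DMSO were those of the ERAD genes HERPUD1 and SYVN1 and the sensor ERN1. HERPUD1 was higher in shNRF2 by 1.31 ± 0.070 (edgeR adjusted p = 4.01e-14), its 3 libraries at 68.6 to 72.0 CPM against 26.8 to 30.8 in shNC. SYVN1 was higher by 1.05 ± 0.13, at 19.5, 19.2 and 17.8 CPM against 11.5, 8.47 and 7.33, and ERN1 by 0.99 ± 0.12. SEL1L was higher by 0.57 ± 0.046, at 259, 255 and 260 CPM against 177, 167 and 178, and DERL2 by 0.59 ± 0.12. In all, 8 of 11 ERAD genes were higher and 0 lower (median 0.32). EDEM1 was among them at 0.26 ± 0.081, with overlapping libraries and a call lost without shNC DMSO 2 or shNRF2 DMSO 1 or 2 (adjusted p = 0.079 to 0.10). DERL1 (-0.10 ± 0.086), SELENOS (0.093 ± 0.054) and SELENOK (0.21 ± 0.086) were not called, SELENOK being called without shNC DMSO 2, shNC GNA 1 or shNRF2 DMSO 1 (adjusted p = 0.0088 to 0.049), and SELENOS and SELENOK both being called with library totals (0.0309 and 0.015).

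Of the 22 chaperone, lectin and disulfide genes 18 were higher in shNRF2 in DMSO and 0 lower (median 0.36). HYOU1 was higher by 0.71 ± 0.068, HSPA5 by 0.63 ± 0.051, DNAJB9 by 0.64 ± 0.073, DNAJB11 and PDIA4 each by 0.54 ± 0.048 and HSP90B1 by 0.45 ± 0.040. CANX (0.105 ± 0.041) and PDIA6 (0.11 ± 0.045) were at the edge of the threshold (edgeR adjusted p = 0.049 for both) and lost their calls without any 1 of 10 libraries, all but shNC DMSO 1 and shNC GNA 1 (adjusted p = 0.053 to 0.19 and 0.056 to 0.20), with a replicate block (0.0711 and 0.0579), with DESeq2 size factors (0.0556 and 0.0539), without the filter and with the compared groups alone. DNAJC3 (0.17 ± 0.057) lost its call without shNC DMSO 1 or 3 or shNRF2 DMSO 3 (adjusted p = 0.059 to 0.13). SIL1, FKBP2, PDIA5 and ERO1A were not called, and ERO1A (-0.15 ± 0.061) was called lower without shNC DMSO 1 or shNRF2 DMSO 2 (-0.21 to -0.17, adjusted p = 0.021 to 0.049) and with DESeq2 size factors (0.0482).

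The translocon genes went both ways between the lines in DMSO. SEC61G, at 123, 145 and 139 CPM in shNC DMSO and 85.2, 90.9 and 99.0 in shNRF2 DMSO, was lower in shNRF2 by 0.57 ± 0.075 (-0.57, edgeR adjusted p = 1.13e-06). SEC61B was at -0.35 ± 0.10 and SEC61A1 at 0.21 ± 0.062, and both calls were lost without shNRF2 DMSO 1 (adjusted p = 0.059 for each). ATF6 did not pass the test between the lines in DMSO (0.017 ± 0.077) or in GNA (0.18 ± 0.074), and without shNRF2 GNA 2 it was called in GNA (0.24, adjusted p = 0.034). XBP1 was at 0.016 ± 0.16 and 0.081 ± 0.16, and again without shNRF2 GNA 2 it was called in GNA (0.36, adjusted p = 0.0045).

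With GNA, HSPA5 had the largest difference between the lines, 1.05 ± 0.051 (edgeR adjusted p = 5.17e-15), followed by ERN1 (1.00 ± 0.105), HYOU1 (0.88 ± 0.068) and HERPUD1 (0.77 ± 0.068). CRELD2 was the one gene lower in shNRF2, at -0.45 ± 0.11 (edgeR adjusted p = 0.00307, and 0.117 with limma on unfiltered FPKM), after being higher by 0.50 ± 0.10 in DMSO. SELENOS (0.45 ± 0.053) and SELENOK (0.54 ± 0.086) were called in GNA. EDEM1 (0.24 ± 0.082) lost its call without any 1 of shNC GNA 1, 2 and 3 and shNRF2 GNA 1 and 2 (adjusted p = 0.056 to 0.11), and ERO1B (0.38 ± 0.13) without shNC GNA 3 or shNRF2 GNA 2 or 3 (adjusted p = 0.081 to 0.12). EDEM2 was not called (0.19 ± 0.086) except without shNC GNA 3 (0.30, adjusted p = 0.015).

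**Figure D5:**
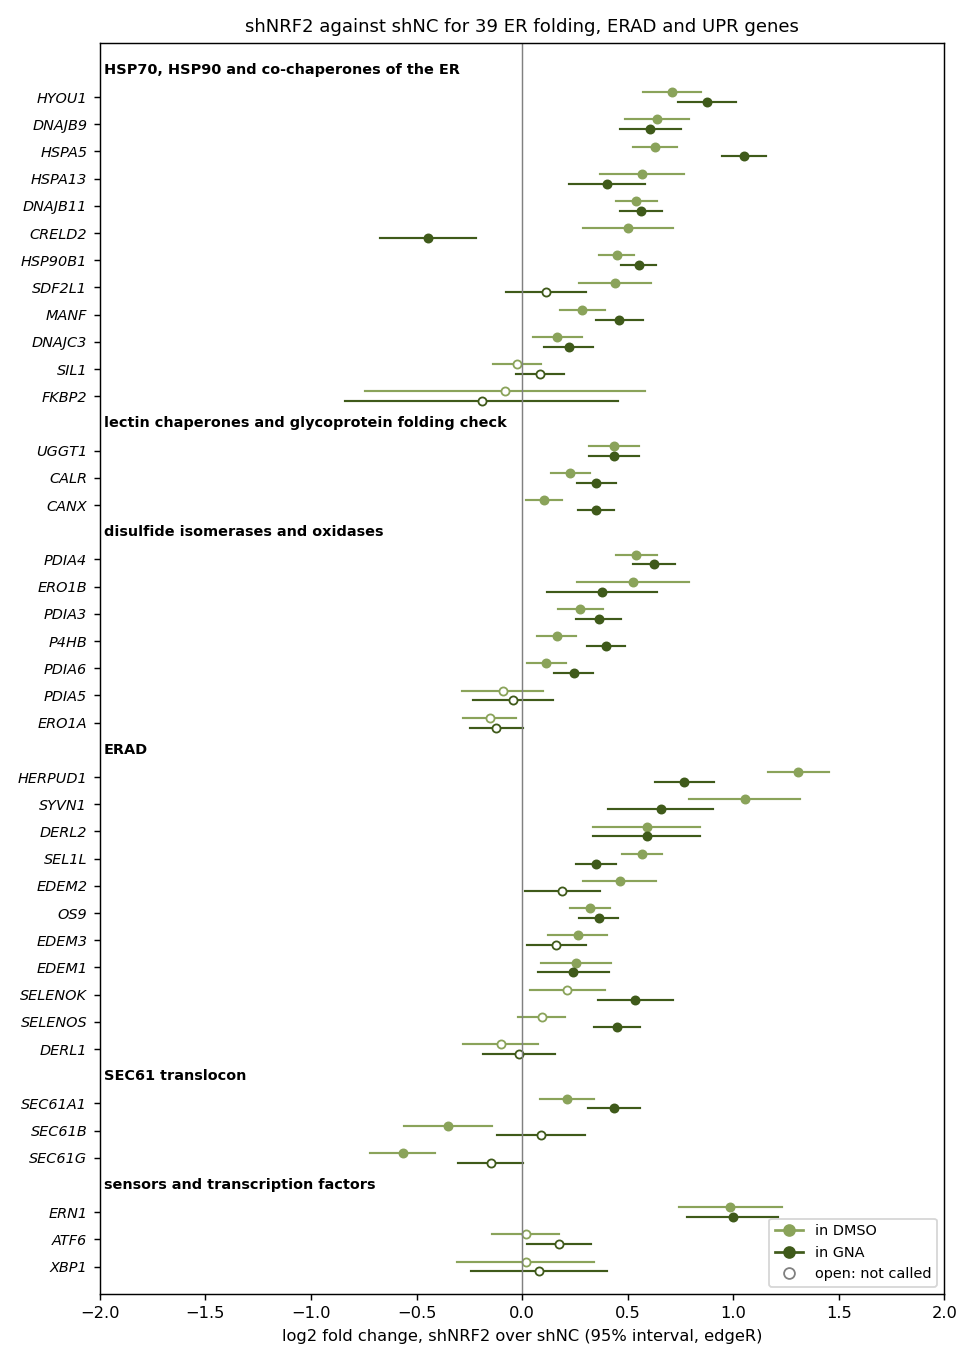
Log2 fold change of shNRF2 over shNC (horizontal axis) with its 95% interval from edgeR for the 39 tested genes, in DMSO (light green) and in GNA (dark green), ordered within each role by the difference in DMSO; filled points were called at an adjusted p under 0.05. Most points lie to the right of 0, HERPUD1 farthest in DMSO, while SEC61G and SEC61B lie to the left in DMSO and CRELD2 changes side.

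The responses to GNA are set side by side by role, with no test between roles. With GNA in shNC 14.6% of all genes were higher and 16.1% lower. The 12 genes of the HSP70 and HSP90 group gave 3 higher and 4 lower (median 0.025). The 3 lectin genes gave 1 and 1 (0.062) and the 7 isomerases and oxidases 0 and 4 (-0.18). The 11 ERAD genes gave 5 and 1 (0.17), the 3 translocon genes 1 and 2 (-0.19) and the 3 sensor and factor genes 2 and 0 (0.28). In shNRF2 16.7% of all genes were higher and 17% lower. In the same order, the roles gave 5 and 5 (-0.038), 1 and 1 (0.060), 1 and 3 (-0.097), 3 and 2 (0.028), 2 and 0 (0.22) and 2 and 0 (0.44). The calls of the small translocon subunits were marginal, as given above. The summed level of the isomerases and oxidases went from 2205 ± 68.4 to 1840 ± 41.3 CPM in shNC and from 2698 ± 110 to 2447 ± 43.6 in shNRF2, and that of ERAD genes went from 1114 ± 26.3 to 1263 ± 19.2 and from 1444 ± 38.2 to 1638 ± 13.2 CPM. These sums carry no test and are led by single abundant genes, PDIA4 and P4HB in the first and OS9 in the second. Over all 40 genes the sum was 12910 ± 396 and 12330 ± 194.5 CPM in shNC with DMSO and GNA, and 16420 ± 363 and 17630 ± 386 in shNRF2. Without HSPA5 the sum was 11690 ± 301.7 and 10900 ± 134.8 CPM in shNC, and 14520 ± 290.3 and 14660 ± 313.7 in shNRF2.

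For the genes given so far by their changes alone, levels follow in CPM, first for shNC with DMSO and with GNA and next for shNRF2 likewise. DNAJB9 stood at 45.3, 56.7 and 45.4, then 64.4, 67.55 and 73.0, then 73.9, 77.2 and 78.7, then 107.1, 101.7 and 103.7. HYOU1 stood at 404, 327 and 391, then 363, 431 and 424, then 660, 604 and 571, then 751.5, 725 and 758.5. DNAJB9 climbed from group to group with no overlap between GNA and DMSO in either line, whereas the shNC libraries of HYOU1 overlapped and all its shNRF2 libraries lay higher. ERO1A stood at 79.9, 81.1 and 80.5, then 68.4, 65.0 and 70.3, then 68.6, 77.9 and 70.9, then 62.97, 64.9 and 59.3. ERO1B stood at 7.51, 8.28 and 7.46, then 8.64, 8.76 and 7.55, then 10.9, 12.3 and 10.3, then 9.88, 11.1 and 11.4. The oxidase ERO1A was thus lower with GNA in both lines, and ERO1B separated the lines and not the treatments. PDIA5 stood at 25.3, 25.3 and 26.9, then 24.5, 23.9 and 28.1, then 25.7, 25.3 and 21.6, then 27.6, 24.6 and 22.4. EDEM1 stood at 33.5, 29.7 and 30.95, then 27.8, 28.99 and 28.98, then 39.2, 40.35 and 32.7, then 35.3, 33.8 and 32.5. The groups of PDIA5 overlapped throughout, and the lowest shNRF2 DMSO library of EDEM1 lay within the shNC DMSO range.

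Sharing an ERSE did not go with 1 direction of response to GNA. Of the 9 genes that rose in both lines HSPA5 and CANX hold one, and of the 8 that fell in both HSP90B1, CALR and PDIA6 do. Of the 27 genes with a window that were higher in shNRF2 in DMSO 7 hold one, among them CANX and PDIA6 at the edge of the threshold. Of the 10 that were not, 1 does, XBP1, which varied widely in shNRF2. ERSE-II is left out of these counts. HERPUD1, HYOU1 and SDF2L1, which hold it, were all higher in shNRF2 in DMSO. With GNA, SDF2L1 fell in both lines, HYOU1 was called higher in shNRF2 only, and HERPUD1 rose in shNC and was marginally lower in shNRF2. All counts are of letters in few genes and carry no test.

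The third arm of the response runs through PERK to ATF4 and the genes downstream of it. Of 8 genes listed for this arm 6 rose and 0 fell with GNA in shNC (median 0.86), where 14.6% of all genes rose and 16.1% fell. In shNRF2 5 rose and 0 fell (median 1.19), against 16.7% and 17% of all genes. DDIT3, which encodes the factor CHOP, rose by 2.05 ± 0.085 in shNC and 2.18 ± 0.078 in shNRF2, and TRIB3, a pseudokinase induced by CHOP and ATF4, by 1.49 ± 0.10 and 1.61 ± 0.098. PPP1R15A, whose product reverses the translation block, rose by 0.73 ± 0.045 and 1.15 ± 0.045, a difference of 0.42 ± 0.063 (edgeR adjusted p = 8.02e-05). CHAC1, which encodes an enzyme that degrades glutathione, had the largest rise of the list in shNC, 3.17 ± 0.32, and rose by 1.45 ± 0.24 in shNRF2. Its difference of responses was called the other way, at -1.72 ± 0.43 (95% interval -2.60 to -0.84, edgeR adjusted p = 0.0136). That value rests on few reads, with 11, 8 and 2 counts of CHAC1 in shNC DMSO, 51, 68 and 75 in shNC GNA, 27, 29 and 31 in shNRF2 DMSO and 85, 95 and 78 in shNRF2 GNA. The PERK gene EIF2AK3 itself was not called with GNA (0.13 ± 0.105 and -0.040 ± 0.098) and was higher in shNRF2 by 0.65 ± 0.10 in DMSO. As background, other kinases of the integrated stress response are known to turn on the same genes.

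Further ER genes were counted from lists drawn up beside the 40, to be read against the 30.7% of all genes called with GNA in shNC and the 33.7% in shNRF2. Of 24 other ER folding enzymes 6 rose and 6 fell in shNC (median -0.065) and 6 and 5 in shNRF2, called shares of 50% and 45.8%. The J-domain reductase gene DNAJC10 (0.47 ± 0.049 and 0.47 ± 0.048), ERP29 (0.45 ± 0.054 and 0.51 ± 0.054) and DNAJC1 (0.43 ± 0.051 and 0.55 ± 0.051) rose, and the prolyl isomerase gene FKBP7 (-0.82 ± 0.12 and -0.69 ± 0.11) and the ER peroxiredoxin gene PRDX4 (-0.31 ± 0.094 and -0.40 ± 0.097) fell, in shNC and shNRF2. Of 24 other ERAD genes 9 rose and 2 fell in shNC and 9 and 3 in shNRF2 (45.8% and 50%). The ubiquitin ligase gene RNF185 (0.56 ± 0.12 and 0.87 ± 0.12) and the p97 cofactor NPLOC4 (0.52 ± 0.073 and 0.65 ± 0.073) rose in both lines. UFD1, the partner of NPLOC4, rose by 0.72 ± 0.067 in shNRF2 and was not called in shNC (0.16 ± 0.066), a difference of 0.56 ± 0.094 (edgeR adjusted p = 0.00034). Of 23 genes of ER entry and N-glycosylation 5 rose and 5 fell in shNC and 8 and 3 in shNRF2 (43.5% and 47.8%), with the BiP-recruiting translocon gene SEC63 at 0.42 ± 0.045 and 0.51 ± 0.044.

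Between the lines in DMSO 35.2% of all genes were called, 16.8% higher and 18.3% lower. Of 24 folding enzymes 7 were higher in shNRF2 and 1 lower, of 24 other ERAD genes 5 and 7, and of 23 entry and glycosylation genes 4 and 3. The called shares, 33.3%, 50% and 30.4%, were near that background for the first and the third list. FKBP10 (0.65 ± 0.072) and TMX3 (0.58 ± 0.060) were the highest of the first list, and DAD1 (-0.45 ± 0.076), a subunit of the oligosaccharyltransferase, was the lowest of the third. With GNA 26.1% of all genes were called between the lines, 12.8% higher and 13.3% lower. There the same 3 lists gave 11 and 1, 6 and 1, and 12 and 1, called shares of 50%, 29.2% and 56.5%. Of 16 tested genes of ER stress signalling and sensor processing 8 were higher and 3 lower in DMSO (68.8%), and 6 and 1 with GNA (43.8%). The difference between these lists and the 40 genes was not tested.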

How the data were processed

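Raw counts and FPKM values, both deposited by the authors per gene symbol, were used for 12 libraries. Per the submitters' processing notes the build was GRCh38 and DESeq2 was used, in a role not stated. The aligner, the counting tool, its strand setting and the annotation are details not given in the sources used, so reads of overlapping or near-identical genes cannot be checked. The deposited FPKM values imply 1 fixed length per gene in all libraries. Genes were filtered with filterByExpr (minimum count 10, minimum total 15), then normalised by TMM. The quasi-likelihood test of edgeR 4.0.16 (R 4.3.3) had 1 term for every group, 12 libraries in the fit, and Benjamini-Hochberg adjustment over 15653 genes. The SE is the log2 fold change divided by the square root of F. With 3 libraries on each side, exact permutation has 0.1 as its smallest p. Genes, roles and lists were chosen with earlier results of these data known. All 40 genes may be named, and other genes by the largest called changes. Alternatives used DESeq2 1.42.0 and limma 3.58.1 on log2(FPKM + 1) and log2(FPKM + 0.1), other scalings and filters, a replicate block, the compared groups alone, and each library left out in turn. C-terminal retrieval signals were not analysed here.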

Additional observations from a re-analysis of the deposited data

Results flagged for a closer look

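The response to GNA was called different between the lines, by the test of that difference, for 8 of the 39 ER genes (20.5%, against 6.82% of all genes): HSPA5 (0.42), CANX (0.245), P4HB (0.23), SELENOS (0.36) and SEC61G (0.42) with a higher response in shNRF2, and CRELD2 (-0.95), HERPUD1 (-0.54) and SEL1L (-0.22) with a lower one, all as differences of log2 fold changes from edgeR. CRELD2, HERPUD1 and SELENOS kept their calls in all 21 alternative runs. HSPA5 lost its call in 1 of them, CANX in 2, SEC61G in 7, P4HB in 10 and SEL1L in 12.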

How the results depend on the processing

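No called change of the 39 genes changed direction in any alternative run. Of 114 calls over the 5 comparisons 87 were kept throughout. Scaling by library totals moved the median of all genes with GNA in shNC from 0.017 to 0.12, and the ER genes then gave 17 higher and 7 lower instead of 12 and 12; the 7 are HSP90B1, DNAJB11, SDF2L1, MANF, CALR, PDIA4 and PDIA6. The 3 limma fits on FPKM, which is scaled by library totals, also gave 7 lower. Without a filter, limma on log2(FPKM + 1) gave 7 lower with GNA in shNRF2, 1 and 0 lower in shNRF2 against shNC in DMSO and GNA, and 1 response higher in shNRF2, where log2(FPKM + 1) and log2(FPKM + 0.1) with the filter gave 3 and 2 in place of 5. Leaving out each library gave for GNA in shNC 11 to 13 higher and 9 to 12 lower, 12 to 14 and 9 to 11 in shNRF2, 25 to 29 and 1 to 3 for shNRF2 against shNC in DMSO, 25 to 26 and 1 in GNA, and 3 to 6 and 2 to 4 for the difference of responses. The 1 lower in DMSO came without shNRF2 DMSO 1 and the 3 higher responses without shNC GNA 2. Libraries were not treated as paired by number in the main fit. Among 18 same-numbered pairs, 0 reached a residual correlation of 0.1, and the best match of 2 of 12 libraries was their own number. That correlation runs over all tested genes, so it cannot show whether same-numbered libraries shared a culture or a batch. With a replicate block the counts for GNA in shNC were 12 up and 10 down, 14 and 11 in shNRF2, 26 and 2 and 26 and 1 between the lines, and 5 and 2 for the difference. Depth limits FKBP2, at 11 to 31 counts a library, and DERL3, with at most 4.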

Other observations

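The spread of XBP1 was unusual among abundant genes. Of 8177 genes with a mean of at least 10 CPM, 10 (0.122%) varied at least as much as XBP1 in both shNRF2 groups, XBP1 included. Among these, XBP1 was the only 1 whose variation in both shNC groups was no larger than its own there. The cut-offs were the values of XBP1 itself, so it met them by construction, and being alone there carries no support. Another of the 10 is UBE2J2, an ER-membrane ubiquitin-conjugating enzyme of ERAD, chosen here after its values were seen. It had 620, 291 and 345 counts in shNRF2 DMSO and 443, 243 and 600 in shNRF2 GNA, with replicate 2 lowest in both groups as for XBP1, against 561 to 717 in the 6 shNC libraries. RCN1, of the list of further ER folding enzymes and also picked after its values were seen, had replicate 2 lowest in both groups too. It stood at 165, 101 and 110.5 CPM in shNRF2 DMSO and at 157.5, 94.4 and 163 in shNRF2 GNA. In shNC it ran from 134.3 to 136.2 CPM with DMSO and from 168.6 to 183.9 with GNA. The cause was not tested.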
